A study of Mus musculus with 19 samples.

Results

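Transcription factors of the basic helix-loop-helix (bHLH) family, with Myc among them, were described in kidney RNA after ischemia-reperfusion injury, with and without a Lactobacillus strain given by gavage beforehand. The genes were those that the authors' transcription factor table assigns to the bHLH family at an identity of at least 95 percent to the best database match. Of 127 bHLH entries in that table, 84 met this identity, 68 of them were in the expression table, and 43 reached at least 1 FPKM (fragments scaled by gene length and library size) in at least 4 of the 19 libraries. The 43 genes are described here out of 19287 entries in the expression table, 13594 of which passed the same filter.

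Male C57BL/6 mice, an inbred laboratory strain, were used throughout. The IRLacz group (4 libraries) came from mice gavaged with L. casei Zhang for 4 weeks and then injured by ischemia-reperfusion, in which the blood flow to the kidney is stopped and restored. The IRLac group (5 libraries) came from mice treated in the same way with the other strain, taken as L. acidophilus by elimination, since the abbreviation for that strain is 1 letter longer than the group name. The IR group (5 libraries) was injured, and the sham group (5 libraries) stands for kidneys without that injury; no gavage is stated for either. Kidneys of all injured groups date from day 5 after the injury. Age, the hour of killing and the length of ischemia are not stated, nor is a vehicle gavage for the IR group, so the strain and the gavage itself cannot be told apart. The labels do not say that each library is its own mouse, so p-values measure the spread between these libraries.

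FPKM totals per library ranged from 545590 to 584798. Read depth is unknown. Steps between low values gave a relative depth of the libraries between 0.981 and 1.017. This estimate used only values near the lowest of each gene, so it could not show large differences in depth. Of 830 higher values, 60.1% lay within 0.1 of a whole step, where 20% would without steps. An FPKM of exactly 0 can be a failed estimate. Among 31 of the bHLH genes described later as higher in IR kidneys, IRLacz replicate 1 was the lowest library of its group for 22, and IRLac replicate 3 for 16. Whole kidney was measured, so fewer cells of a type and less RNA per cell cannot be told apart. The kidney label was checked on 7 proximal tubule genes, which summed to between 1763.0 and 5942.3 FPKM in every library.

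Proteins of the bHLH family bind DNA as pairs, mostly at short sites called E-boxes, and their partners decide whether a target gene is switched on or off. Myc pairs with Max to drive growth and ribosome production, and proteins of the Mxd group compete for Max and oppose it. Other branches run the circadian clock, sense oxygen or foreign compounds, control lipid synthesis and lysosomes, answer to Notch and BMP signals, or mark particular cell lineages. In the kidney the family is known for Tcf21 in stromal and podocyte precursors, for Hes and Hey genes downstream of Notch, and for Myc in regrowing tubules and cystic disease.

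Among the 43 genes, 10 belong to the Myc, Max and Mxd network, 9 are leucine zipper factors (the USF, MiT/TFE and SREBF groups and Tfap4), 8 have a PAS domain, 3 are E proteins, 2 are Id proteins, 6 are Hes, Hey and Bhlhe40/41 repressors, and 5 are lineage factors. Of these, 35 were at 1 FPKM or more in all 19 libraries. Arntl2, Bhlhe41, Mxd3, Hes7 and Hey1 reached 1 FPKM in no sham library and passed the filter through the injured groups alone, so their place in the list depends on being high there and their difference of IR from sham is given as a description. In sham kidneys the highest mean levels were those of Mlxipl (58.41 FPKM), Usf2 (51.68 FPKM) and Mxd4 (46.61 FPKM). In IR kidneys Bhlhe40 came first at 66.15 FPKM, followed by Usf2 at 59.99 FPKM and Mxd4 at 54.61 FPKM. Mxd4 had the highest mean in IRLacz kidneys, at 59.07 FPKM.

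The comparison of IR with sham asks what the injury left changed at day 5. Most of the family stood higher in injured kidneys. On the log2(FPKM + 1) scale, Scx, a tendon and matrix factor, and Myc showed the largest differences, and the clock gene Arntl the most negative. By limma on log2(FPKM + 1), with Benjamini-Hochberg adjustment over all entries tested and a threshold of 0.05, 36 of the 43 genes (83.7%) passed, against 75.6% of all entries. There were 31 higher and 5 lower among the bHLH genes, and 57% higher and 18.6% lower among all entries. The same shares of all entries apply to the counts by role and by list of related genes below. Of the 31, 4 were genes with no sham library at 1 FPKM. The median log2 difference was 0.5 over the 43 genes and 0.29 over all entries. Under median-ratio scaling of the libraries the split was 21 higher and 11 lower, beside 35% and 35.3% of all entries, and under quantile scaling 20 higher and 12 lower, beside 31.1% and 38.9%. Every IR library lay above every sham library for 26 of the genes and below for 2, Arntl and Usf3, where 48.6% and 15.2% of all entries did so. The 26 include Arntl2, Bhlhe41 and Mxd3, which passed the filter through the injured groups alone.

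**Figure D1:**
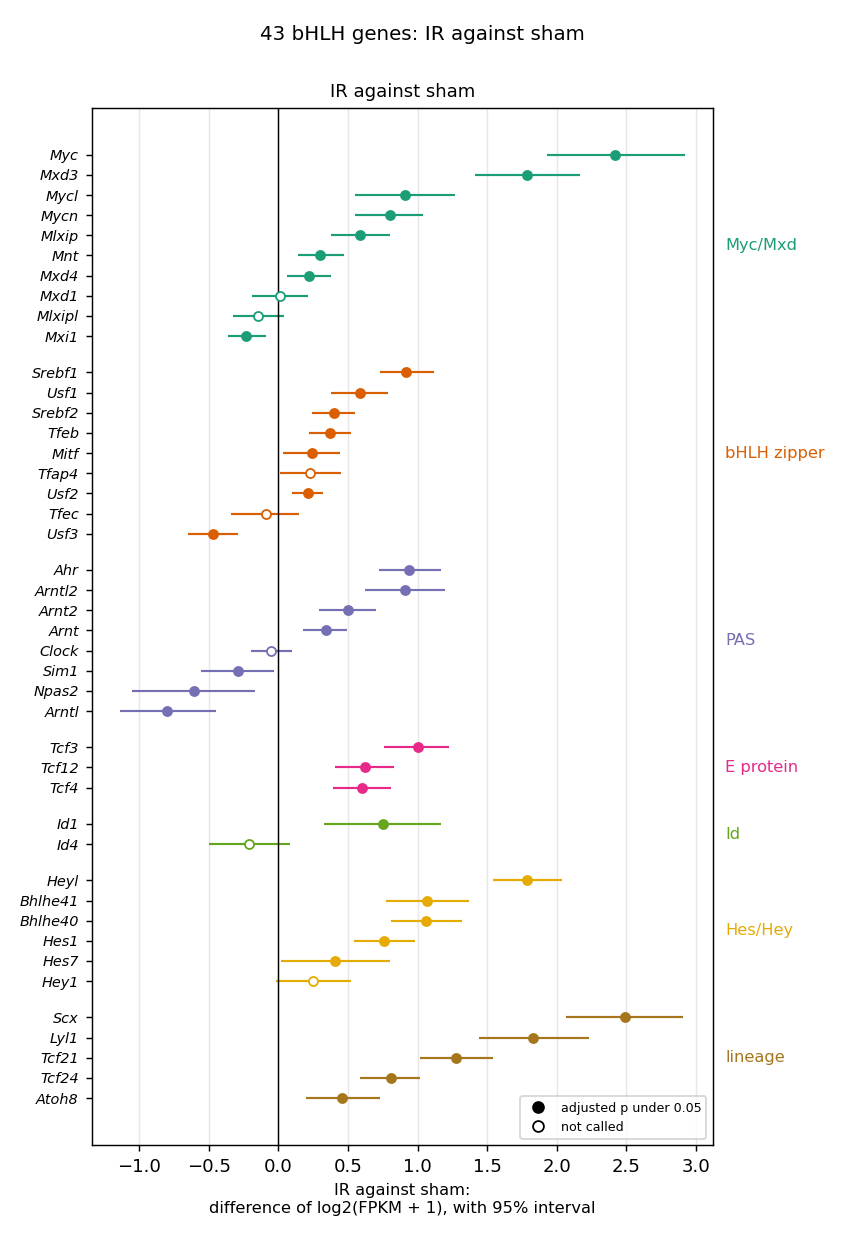
Difference of IR from sham on the log2(FPKM + 1) scale for the 43 bHLH genes, grouped by role down the page, with 95% intervals from limma (n = 5 IR and 5 sham libraries). Filled points passed an adjusted p of 0.05; Scx and Myc lie farthest to the right at 2.49 and 2.42, and Arntl farthest to the left at -0.80.

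The cell makeup of the samples moved with the same comparison. The summed FPKM of 8 macrophage markers ranged from 1110.1 to 1581.5 in IR libraries, against 85.3 to 115.8 in sham libraries. For 7 fibroblast markers the sums were 771.2 to 948.2 in IR and 82.6 to 113.5 in sham, and for 7 cell cycle genes 53.4 to 81.5 in IR and 5.3 to 6.4 in sham. The proximal tubule sum was 2101.4 to 3018.0 in IR and 5321.2 to 5942.3 in sham, without overlap. Endothelial markers (7 genes) summed to 103.8 to 117.8 in IR and 91.1 to 115.2 in sham, and podocyte markers (5 genes) to 71.1 to 89.5 in IR and 85.5 to 102.7 in sham, so these ranges overlapped. No marker of these lists was at 0 in any library, and the part of each cell type in the bHLH differences was not tested.

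Within the Myc network 7 of 10 genes rose and 1 fell, beside 57% and 18.6% of all entries. The 7 include Mxd3, which passed the filter through the injured groups alone. Median-ratio scaling gave 5 and 3, and quantile scaling 3 and 3. Myc itself had the largest difference of the network on the log2(FPKM + 1) scale. It was at 31.98, 31.56, 31.42, 23.39 and 18.66 FPKM in IR libraries, against 6.65, 4.29, 3.43, 2.95 and 4.31 FPKM in sham libraries. Every IR library was above the highest sham library. The log2 difference was 2.42 (SE 0.23, adjusted p by limma = 4.85e-08). The paralogs Mycn and Mycl, which share the growth role of Myc in other tissues, were far lower in level. Mycn was at 2.67 to 3.64 FPKM in IR, against 0.89 to 2.09 FPKM in sham, a log2 difference of 0.80 (adjusted p = 6.36e-06), and Mycl at 3.10 to 5.16 FPKM in IR, against 1.13 to 2.49 FPKM in sham, a log2 difference of 0.91 (adjusted p = 8.58e-05). All 3 Myc genes therefore rose without overlap between the groups, and under quantile scaling the adjusted p of Mycn was 0.0527.

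Among the antagonists of Myc, Mnt and Mxd4 rose, Mxi1 fell and Mxd1 did not pass. Mxd3, an Mxd protein linked to the S phase of dividing cells, was at 4.85, 5.01, 3.2, 3.73 and 3.99 FPKM in IR libraries, against 0.27, 0.61, 0.38, 0.45 and 0.72 FPKM in sham libraries, a log2 difference of 1.79 (SE 0.18) in a gene that passed the filter through the injured groups alone. Mxi1, which pairs with Max and represses Myc targets, was at 25.44, 26.58, 24.65, 28.54 and 28.32 FPKM in IR libraries, against 28.07, 28.57, 33.94, 32.97 and 34.08 FPKM in sham libraries. Mxi1 thus fell, with a log2 difference of -0.23 (SE 0.06, adjusted p = 0.0034), and the ranges met at their edges. Mxd1, another Mxd repressor, was at 3.65 to 4.10 FPKM in IR, against 3.45 to 4.35 FPKM in sham, and did not pass (log2 0.01, adjusted p = 0.909), although it was lower under median-ratio scaling (-0.264) and under quantile scaling (-0.476). Mnt, the broadly expressed Max partner that counters Myc, was higher by 0.30 (adjusted p = 0.00149), with a sign that turned under median-ratio and quantile scaling. Mxd4 was higher by 0.22 (adjusted p = 0.0119), with a sign that turned under median-ratio scaling and an adjusted p of 0.142 under quantile scaling.

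The sugar-sensing members of the network, which pair with Mlx instead of Max, split. Mlxip (MondoA) was at 8.09 to 9.34 FPKM in IR, against 4.43 to 6.08 FPKM in sham, a log2 difference of 0.59 (adjusted p = 2.78e-05), with an adjusted p of 0.0525 under quantile scaling. Mlxipl (ChREBP), which drives glycolytic and lipogenic genes in response to glucose, was at 49.12 to 59.22 FPKM in IR, against 52.80 to 63.39 FPKM in sham, and did not pass (log2 -0.15, adjusted p = 0.131). It was lower under median-ratio scaling (adjusted p = 0.000409), under quantile scaling (0.0389) and with library weights (0.0253). Max itself missed the identity rule, and was at 32.26 ± 2.63 FPKM in IR, against 23.54 ± 1.86 FPKM in sham (SD, n = 5 each).

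Because Myc-Max and Mxd-Max pairs bind the E-box CACGTG, promoter windows were searched for it. RefSeq windows on GRCm38.p6, from 250 bases before to 50 bases after a gene's start, were on hand for 31 of the 43 genes. The E-box reads the same on both strands. It was present in the windows of 5 of the 31 genes (16.1%), Atoh8, Bhlhe41, Mlxipl, Mnt and Mxd4, against 11.5% of 10534 tested genes with a window and 8.09% of all 27025 genes with a window. The windows of the 2 Max partners are shown because they carry a site that their own protein pair can bind. Capitals mark the E-box, which starts 123 bases before the Mnt start (chr11:74830674-74830973, plus strand) and 219 bases before the Mxd4 start (chr5:34187661-34187960, minus strand). Both are written along the strand of the gene.
Mnt: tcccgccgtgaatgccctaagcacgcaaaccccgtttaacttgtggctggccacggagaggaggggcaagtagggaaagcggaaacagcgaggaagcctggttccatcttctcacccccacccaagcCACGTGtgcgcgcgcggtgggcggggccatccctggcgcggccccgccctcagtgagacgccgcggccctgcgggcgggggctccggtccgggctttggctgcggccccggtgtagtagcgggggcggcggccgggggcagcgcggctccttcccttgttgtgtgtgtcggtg
Mxd4: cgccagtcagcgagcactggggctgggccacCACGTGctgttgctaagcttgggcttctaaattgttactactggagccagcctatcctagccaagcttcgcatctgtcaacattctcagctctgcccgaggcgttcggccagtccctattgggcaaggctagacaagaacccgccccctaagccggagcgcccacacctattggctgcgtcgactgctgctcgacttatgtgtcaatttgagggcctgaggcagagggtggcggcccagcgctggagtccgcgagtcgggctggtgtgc

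**Figure D2:**
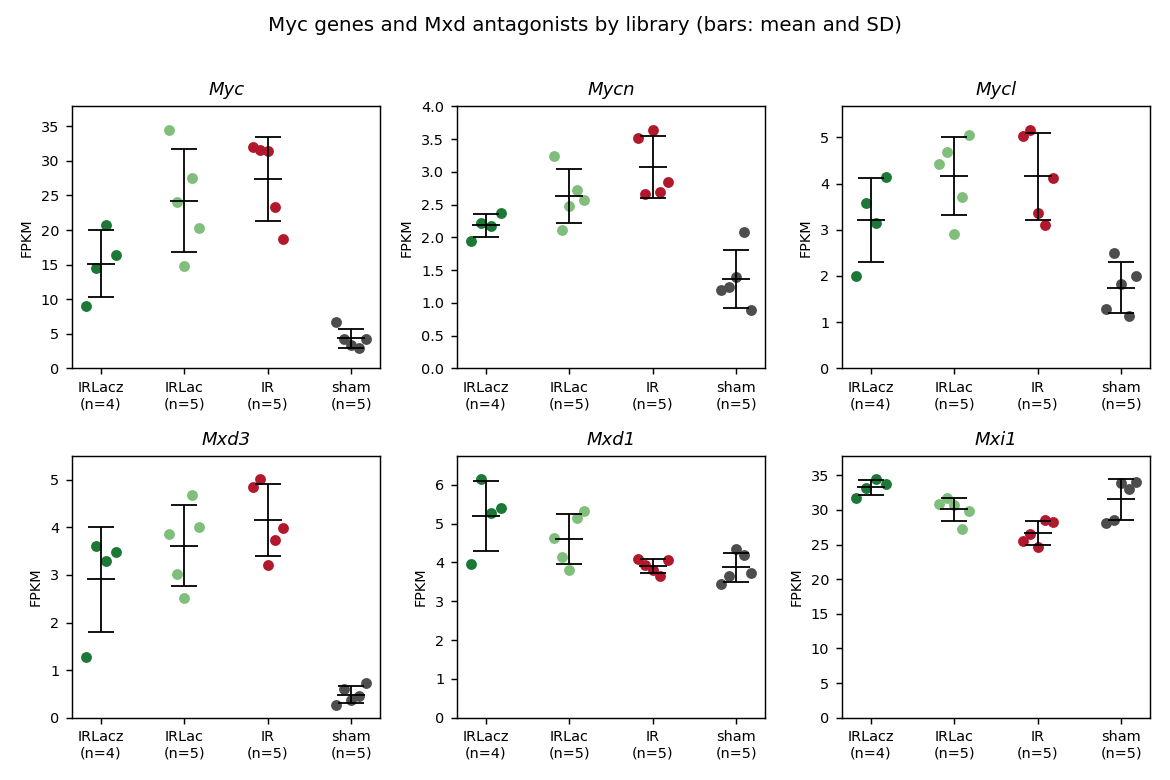
FPKM of Myc, Mycn, Mycl, Mxd3, Mxd1 and Mxi1 in each library, by group on the x axis (IRLacz n = 4, IRLac, IR and sham n = 5), with bars for the mean and SD. Myc lies at 18.66 to 31.98 FPKM in IR and at 2.95 to 6.65 FPKM in sham, while Mxi1 stands at 31.79 to 34.41 FPKM in IRLacz, above all IR libraries.

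Known targets of Myc in ribosome assembly and growth stood higher with it. Of 22 listed target genes, 19 were higher in IR than in sham and 1 was lower, with a median log2 difference of 0.84 beside 0.29 over all entries. Median-ratio scaling gave 18 higher and 3 lower, and quantile scaling 17 and 2. Nop56, a core protein of the small nucleolar particles that modify ribosomal RNA, was at 32.13 ± 5.31 FPKM in IR, against 11.37 ± 1.42 FPKM in sham (SD, n = 5 each). Its partner Nop58 was at 27.64 ± 3.89 FPKM in IR, against 8.34 ± 1.32 FPKM in sham. The cell cycle kinase gene Cdk4 was at 109.4 ± 7.9 FPKM in IR, against 41.07 ± 1.39 FPKM in sham, and the cyclin gene Ccnd2 at 5.88 ± 0.54 FPKM in IR, against 2.49 ± 0.11 FPKM in sham. Odc1, which makes polyamines and is a classic Myc target, was the member that fell, at 174.3 ± 27.4 FPKM in IR, against 625.2 ± 111.9 FPKM in sham.

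Among the leucine zipper factors, 6 of 9 rose and Usf3 fell, beside 57% and 18.6% of all entries, and Tfap4 and Tfec did not pass. Median-ratio scaling gave 2 higher and 3 lower, and quantile scaling 4 and 4. Srebf1, which switches on fatty acid synthesis, was at 27.09, 29.20, 26.48, 29.45 and 31.09 FPKM in IR libraries, against 17.01, 14.43, 13.87, 15.02 and 12.98 FPKM in sham libraries. The groups lay well apart, with a log2 difference of 0.92 (SE 0.09, adjusted p by limma = 8.22e-08). Srebf2, which governs cholesterol synthesis and uptake, was at 31.73 to 36.08 FPKM in IR, against 23.21 to 28.62 FPKM in sham, a smaller difference of 0.40 (SE 0.07, adjusted p = 7.48e-05). Under median-ratio scaling the adjusted p of Srebf2 was 0.485.

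Genes that SREBP proteins activate went both ways. Of 16 listed, 8 were higher in IR and 5 lower, with a median of 0.18 on the log2 scale; the counts were 6 and 6 with median-ratio scaling and 6 and 8 with quantile scaling. Fdps and Fdft1, early steps of sterol synthesis, were higher, at 40.64 ± 2.68 and 13.41 ± 1.07 FPKM in IR, against 21.93 ± 2.91 and 7.36 ± 0.81 FPKM in sham (SD, n = 5 each). Cyp51, a later step, fell to 20.72 ± 3.40 FPKM in IR, against 69.32 ± 4.24 FPKM in sham.

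Of the MiT/TFE group, known for lysosome formation and autophagy, Tfeb, Mitf and Tfec met the family rule. Tfeb was at 20.59 to 22.88 FPKM in IR, against 15.64 to 17.47 FPKM in sham, a log2 difference of 0.37 (adjusted p = 0.000105). Tfeb did not overlap between the groups, and did not pass under median-ratio (adjusted p = 0.645) or quantile scaling (0.331). Mitf, best known from pigment cells and osteoclasts, was higher by 0.24 (adjusted p = 0.0323), a sign that turned under median-ratio and quantile scaling, and leaving out single IR or sham libraries brought its adjusted p to as much as 0.103. Tfec, the relative found mainly in macrophages, was at 11.56, 12.50, 10.25, 10.46 and 9.61 FPKM in IR libraries, against 13.81, 12.30, 8.21, 12.49 and 12.10 FPKM in sham libraries. The ranges of Tfec overlapped and it did not pass (log2 -0.09, adjusted p = 0.466). The macrophage marker sums of the groups lay apart, and the source cells of Tfec were not tested. Under median-ratio and quantile scaling Tfec was lower (adjusted p = 0.00353 and 0.00224). Tfe3, the relative that missed the identity rule, was at 17.68 to 19.88 FPKM in IR, against 9.81 to 10.95 FPKM in sham, without overlap (log2 0.80, adjusted p = 7.13e-07).

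Of 14 listed lysosomal targets, 6 were higher in IR and 3 lower, against 5 and 9 with median-ratio scaling and 5 and 5 with quantile scaling. The protease genes Ctsd and Ctsb were higher, at 1021 ± 74 and 700.8 ± 81.2 FPKM in IR, against 395.4 ± 16.5 and 337.1 ± 18.8 FPKM in sham (SD, n = 5 each). Hexa, which encodes a lysosomal hexosaminidase subunit, was at 91.21 ± 9.0 FPKM in IR, against 32.58 ± 2.04 FPKM in sham.

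The USF factors bind E-boxes in metabolic genes. Usf1 was at 29.60 to 37.24 FPKM in IR, against 19.72 to 24.02 FPKM in sham, a log2 difference of 0.59 (adjusted p = 2.73e-05). Usf2, one of the most abundant of the family here, was at 53.52 to 64.31 FPKM in IR, against 50.27 to 52.98 FPKM in sham, higher by 0.21 (adjusted p = 0.00162), but lower under median-ratio scaling (-0.13). Usf3 went the other way, at 2.90, 3.21, 3.19, 3.76 and 3.73 FPKM in IR libraries, against 5.25, 5.13, 4.68, 4.60 and 5.44 FPKM in sham libraries. All IR libraries of Usf3 were below all sham libraries, and it fell by 0.47 on the log2 scale (SE 0.08, adjusted p = 6.18e-05). Tfap4, itself a known Myc target, was at 3.32 to 4.91 FPKM in IR, against 2.60 to 3.63 FPKM in sham and did not pass (log2 0.23, adjusted p = 0.05 after rounding), although it passed as higher in 12 of 29 other settings, such as library weights (adjusted p = 0.0242), and as lower under quantile scaling (-0.272, adjusted p = 0.0212).

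Among the 8 PAS factors 4 rose and 3 fell, beside 57% and 18.6% of all entries, and the clock activators were among those that fell. The 4 include Arntl2, which depends on the filter as given below. Median-ratio scaling gave 3 higher and 4 lower, and quantile scaling 2 and 4. Arntl (Bmal1), the partner that CLOCK needs to drive the clock, was at 5.43, 4.87, 3.97, 5.70 and 5.21 FPKM in IR libraries, against 10.74, 9.32, 7.67, 11.83 and 8.15 FPKM in sham libraries. All IR libraries were below all sham libraries, and Arntl fell by 0.80 on the log2 scale (SE 0.16, adjusted p by limma = 0.000223). Npas2, which can stand in for CLOCK, was at 4.63, 3.08, 3.38, 4.01 and 3.02 FPKM in IR libraries, against 7.04, 5.84, 4.62, 8.37 and 4.83 FPKM in sham libraries. Npas2 fell by 0.61 (SE 0.21, adjusted p = 0.0121), and its highest IR library just passed its lowest sham library. Clock itself was at 4.39 to 5.14 FPKM in IR, against 4.61 to 5.53 FPKM in sham and did not pass (log2 -0.05, adjusted p = 0.504), although it was lower under median-ratio scaling (adjusted p = 7.15e-05) and quantile scaling (1.51e-06). Arntl2, the paralog of Arntl, was at 1.2 to 1.44 FPKM in IR, against 0.10 to 0.32 FPKM in sham (log2 0.91), and passed the filter through the injured groups alone.

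Bhlhe40 and Bhlhe41 (Dec1 and Dec2) repress the targets of CLOCK and ARNTL and also answer to hypoxia and cytokines. Bhlhe40 was at 77.97, 62.11, 72.67, 60.17 and 57.84 FPKM in IR libraries, against 32.29, 33.91, 32.56, 25.61 and 31.16 FPKM in sham libraries. Bhlhe41 was much lower in level, at 1.48, 1.67, 2.14, 1.76 and 1.49 FPKM in IR libraries, against 0.34, 0.25, 0.35, 0.11 and 0.39 FPKM in sham libraries. Bhlhe40 rose by 1.06 with no overlap between the groups (SE 0.12, adjusted p = 3.44e-07). Bhlhe41, which passed the filter through the injured groups alone, had a log2 difference of 1.07 (SE 0.14).

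Of 11 listed genes that CLOCK and ARNTL drive, 4 were higher in IR (Per1, Per2, Per3 and Dbp) and 3 lower (Nr1d1 and Tef among them), with 1 and 3 under median-ratio scaling and 0 and 4 under quantile scaling. Nr1d1 (REV-ERBα), which represses Arntl, was at 22.78 ± 2.12 FPKM in IR, against 36.11 ± 5.98 FPKM in sham (SD, n = 5 each). Per1 had a wide spread, at 9.51 ± 2.78 FPKM in IR, against 4.52 ± 1.94 FPKM in sham. Clock genes cycle over the day, and whether the groups were killed at the same hour was not tested.

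The Arntl promoter is known for sites of the REV-ERB receptors, and the E-box is the site of CLOCK and ARNTL, so the windows of Arntl and Bhlhe41 are shown. The pattern searched was TNGGTCA, in which N stands for any base, and binding of REV-ERB receptors at its matches was not tested. A match on either strand was found in the windows of 2 of 31 genes (6.45%), Arntl and Lyl1, against 11.7% of tested genes with a window. In the second of the 2 RefSeq windows of Arntl (chr7:113207261-113207560, plus strand) capitals mark 3 matches, which start 246 and 227 bases before and 30 bases after the gene's start. Whether these matches are the known sites was not tested, and a known site that differs from the pattern would stay unmarked. In Bhlhe41 (chr6:145865371-145865670, minus strand) capitals mark the E-box CACGTG, 153 bases before the start.
Arntl: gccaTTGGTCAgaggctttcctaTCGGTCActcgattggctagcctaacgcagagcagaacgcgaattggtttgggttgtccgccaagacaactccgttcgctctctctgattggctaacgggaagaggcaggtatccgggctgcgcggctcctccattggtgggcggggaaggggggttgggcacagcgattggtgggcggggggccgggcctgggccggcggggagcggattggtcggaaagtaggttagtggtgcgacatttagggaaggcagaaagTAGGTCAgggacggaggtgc
Bhlhe41: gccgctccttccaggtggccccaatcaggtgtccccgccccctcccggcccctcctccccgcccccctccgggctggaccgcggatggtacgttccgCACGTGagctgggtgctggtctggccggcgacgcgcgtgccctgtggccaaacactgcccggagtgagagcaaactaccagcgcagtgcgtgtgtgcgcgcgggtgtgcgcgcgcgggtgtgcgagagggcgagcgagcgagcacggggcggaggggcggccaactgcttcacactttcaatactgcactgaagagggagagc

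**Figure D3:**
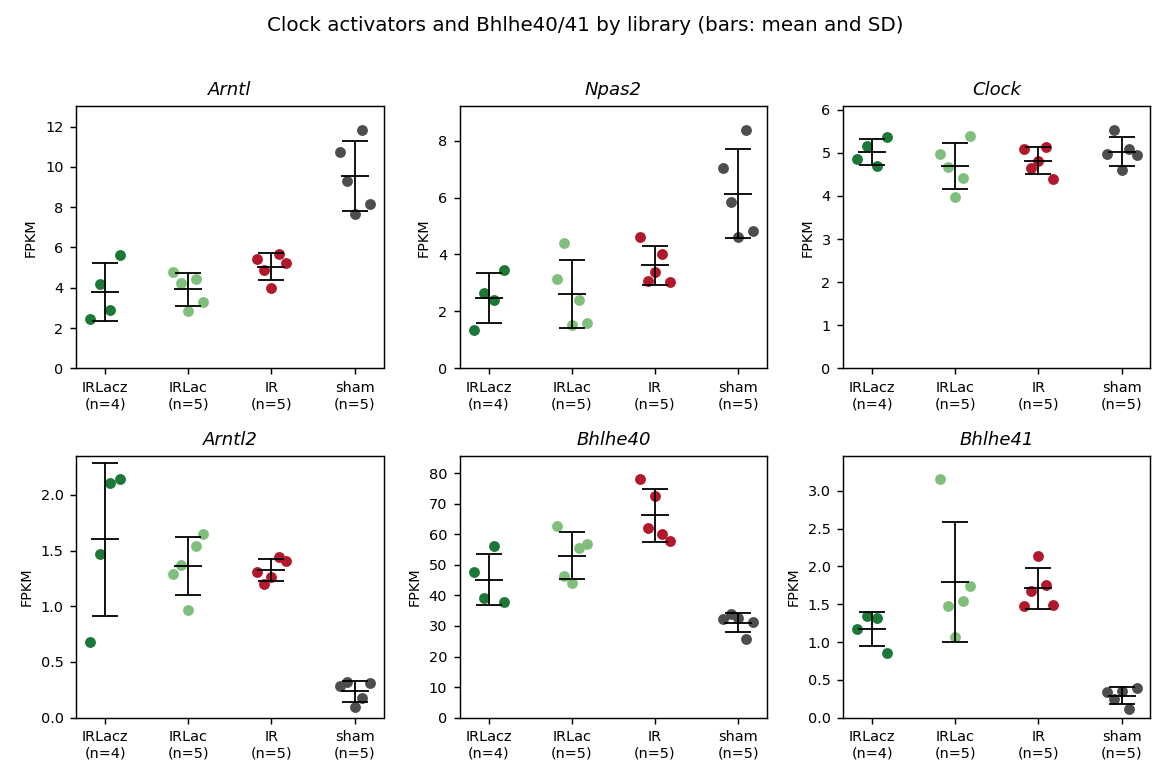
FPKM of Arntl, Npas2, Clock, Arntl2, Bhlhe40 and Bhlhe41 in each library, by group on the x axis (IRLacz n = 4, IRLac, IR and sham n = 5), with bars for the mean and SD. Arntl lies at 3.97 to 5.70 FPKM in IR, against 7.67 to 11.83 FPKM in sham, while Bhlhe40 lies at 57.84 to 77.97 FPKM in IR, against 25.61 to 33.91 FPKM in sham.

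The other PAS factors rose, apart from Sim1. Ahr, the receptor for dioxins and for tryptophan products of gut bacteria, was at 3.70, 3.67, 4.68, 4.21 and 3.40 FPKM in IR libraries, against 1.14, 1.85, 1.55, 1.78 and 1.5 FPKM in sham libraries. The groups did not overlap and the log2 difference was 0.94 (SE 0.11, adjusted p = 3.17e-07). Its listed targets did not move together. Cyp1b1 was at 14.22 ± 2.53 FPKM in IR, against 5.95 ± 1.00 FPKM in sham, Nqo1 at 26.73 ± 3.27 FPKM in IR, against 41.11 ± 5.01 FPKM in sham, and Tiparp at 6.03 ± 0.68 FPKM in IR, against 5.92 ± 0.79 FPKM in sham (SD, n = 5 each), while Cyp1a1 and Aldh3a1 were too low to test.

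Arnt, the common partner of Ahr and of the hypoxia-inducible factors, was at 10.20 to 12.45 FPKM in IR, against 8.20 to 9.32 FPKM in sham, higher by 0.34 (adjusted p = 0.000349) but not under median-ratio scaling (adjusted p = 0.708) and with a sign that turned under quantile scaling. Arnt2, its paralog, was at 11.05 to 14.01 FPKM in IR, against 8.17 to 9.29 FPKM in sham, higher by 0.50 (adjusted p = 0.000123), with 0.129 and an adjusted p of 0.169 under quantile scaling. Sim1, known as a hypothalamic and kidney developmental factor, was at 2.02 to 3.06 FPKM in IR, against 2.55 to 3.44 FPKM in sham, a fall of 0.29 (adjusted p = 0.0402) that missed the threshold without any 1 of 7 IR or sham libraries, with a highest adjusted p of 0.0897, and with TPM scaling (0.059). Of 17 hypoxia target genes tested, 4 were higher in IR and 8 lower. The glucose transporter gene Slc2a1 and the hexokinase gene Hk2 were higher, at 63.01 ± 4.82 and 5.61 ± 0.96 FPKM in IR, against 29.85 ± 4.23 and 0.204 ± 0.059 FPKM in sham. Vegfa and the mitophagy gene Bnip3 fell, at 58.06 ± 4.28 and 45.02 ± 2.78 FPKM in IR, against 88.73 ± 4.51 and 72.67 ± 3.70 FPKM in sham.

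E proteins are broadly expressed partners of lineage bHLH factors, and all 3 rose, beside 57% of all entries. Tcf3 (E2A) was at 23.66, 23.98, 23.20, 21.59 and 23.44 FPKM in IR libraries, against 10.62, 10.80, 11.43, 12.32 and 10.50 FPKM in sham libraries. Both groups of Tcf3 were tight and far apart, with a log2 difference of 1.00 (SE 0.11, adjusted p by limma = 2.95e-07). Tcf12 (HEB) was at 12.93 to 15.33 FPKM in IR, against 7.86 to 9.24 FPKM in sham (log2 0.62, adjusted p = 1.97e-05). Tcf4 (E2-2) was at 8.51 to 10.37 FPKM in IR, against 5.33 to 6.62 FPKM in sham (log2 0.60, adjusted p = 2.46e-05), and its adjusted p was 0.0655 under quantile scaling.

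Id proteins lack the DNA-binding region and trap E proteins, and their genes are switched on by BMP signals. Id1 was at 56.90, 39.14, 57.81, 43.59 and 30.96 FPKM in IR libraries, against 36.08, 19.42, 24.00, 32.90 and 21.55 FPKM in sham libraries. Id1 rose by 0.75 on the log2 scale (SE 0.20, adjusted p = 0.00221), with overlap between the groups, and had an adjusted p of 0.0639 under median-ratio scaling. Id4, at 12.39 to 18.24 FPKM in IR, against 15.78 to 21.11 FPKM in sham, did not pass (log2 -0.21, adjusted p = 0.174), although it was lower under median-ratio (adjusted p = 0.00179) and quantile scaling (0.00338).

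Of 12 BMP pathway genes tested, 10 were higher in IR and Bmp7 was lower, with 5 and 2 under median-ratio scaling and 4 and 2 under quantile scaling. The receptor gene Bmpr1a was at 13.91 ± 1.00 FPKM in IR, against 9.08 ± 0.83 FPKM in sham, and the signal transducers Smad1 and Smad5 were at 9.40 ± 0.75 and 13.07 ± 0.85 FPKM in IR, against 4.54 ± 0.77 and 8.29 ± 0.51 FPKM in sham (SD, n = 5 each). Bmp7, the ligand made by kidney tubules and known for countering fibrosis, was at 9.99 ± 1.52 FPKM in IR, against 16.53 ± 1.21 FPKM in sham.

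Repressors of the Hes and Hey group, which carry out Notch signals, were led by Heyl, a gene of vascular smooth muscle and pericytes. Heyl was at 5.90, 6.87, 5.59, 5.84 and 7.02 FPKM in IR libraries, against 1.29, 0.90, 1.01, 1.15 and 1.09 FPKM in sham libraries. The spread within each group was small beside the gap, with a log2 difference of 1.79 (SE 0.12, adjusted p by limma = 6.01e-10), the smallest adjusted p of the 43 genes. Hes1, the general Notch effector, was at 44.84, 41.37, 36.28, 34.46 and 31.23 FPKM in IR libraries, against 18.97, 22.81, 24.36, 23.17 and 19.46 FPKM in sham libraries. Hes1 rose by 0.76 without overlap (SE 0.10, adjusted p = 2.87e-06). Hes7 and Hey1 were near 1 FPKM or under it in most libraries. Both passed the filter through the injured groups alone, so their differences of IR from sham are given as a description. They were 0.41 for Hes7 and 0.25 for Hey1 on the log2 scale. Hes7 only just passed the threshold, and did so in 2 of 10 fits without 1 IR or sham library. Its sign turned under quantile scaling, and Hey1 did not pass.

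Of 14 Notch pathway genes, 10 were higher in IR and 2 lower (Notch4 and Rfng), against 6 and 2 under median-ratio scaling and 4 and 5 under quantile scaling. The ligand gene Jag1 was at 14.15 ± 1.98 FPKM in IR, against 4.94 ± 0.54 FPKM in sham, the receptor gene Notch3 at 6.51 ± 0.74 FPKM in IR, against 3.07 ± 0.36 FPKM in sham, and Rbpj, the DNA-binding partner of the receptors, at 12.71 ± 0.39 FPKM in IR, against 6.28 ± 0.38 FPKM in sham (SD, n = 5 each). Lfng, a sugar transferase that tunes receptor choice, was at 11.33 ± 0.61 FPKM in IR, against 4.23 ± 0.58 FPKM in sham.

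All 5 lineage factors that passed the filter rose, beside 57% of all entries, and 4 did so under median-ratio or quantile scaling. Scx (scleraxis) was at 23.21, 19.09, 22.46, 16.01 and 17.24 FPKM in IR libraries, against 2.29, 2.92, 4.00, 2.07 and 2.16 FPKM in sham libraries. With a log2 difference of 2.49 (SE 0.20, adjusted p by limma = 5.37e-09) it had the largest difference of the family on the log2(FPKM + 1) scale. That scale understates the change of low genes such as Mxd3. The groups of Scx lay far apart. Tcf21, known from kidney stroma and podocytes, was at 61.58, 54.30, 46.29, 48.25 and 48.18 FPKM in IR libraries, against 19.18, 21.51, 19.95, 20.33 and 22.16 FPKM in sham libraries. Tcf21 rose by 1.28 (SE 0.12, adjusted p = 4.53e-08), beside the podocyte marker sums that were no higher in IR and the fibroblast sums that were. The source cells of Tcf21 were not tested.

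Lyl1, a blood and endothelial factor, was at 7.28, 5.99, 7.97, 5.33 and 6.82 FPKM in IR libraries, against 1.62, 0.92, 1.30, 1.05 and 0.89 FPKM in sham libraries (log2 1.83, SE 0.18, adjusted p = 9.07e-08). Its groups did not overlap, while the endothelial marker sums did and the macrophage sums did not, and the source cells of Lyl1 were not tested. Tcf24 was at 6.48 to 8.84 FPKM in IR, against 3.44 to 4.21 FPKM in sham (log2 0.81, adjusted p = 9.93e-07). Atoh8 was at 3.21 to 4.95 FPKM in IR, against 2.40 to 3.59 FPKM in sham, higher by 0.46 (adjusted p = 0.00251), but not under median-ratio scaling (adjusted p = 0.129) and with a sign that turned under quantile scaling (-0.049). All 8 genes of a list associated with the mesenchymal regulator TWIST were higher in IR, with 6 under median-ratio and 5 under quantile scaling. The list includes the epithelial cadherin gene Cdh1, so the count is not one of mesenchymal genes alone. The matrix gene Fn1 was at 63.61 ± 8.22 FPKM in IR, against 6.15 ± 0.94 FPKM in sham, Vim at 183.3 ± 24.6 FPKM in IR, against 28.54 ± 1.43 FPKM in sham, and the zinc finger factors Zeb2 and Snai1 at 9.25 ± 0.44 and 6.17 ± 1.1 FPKM in IR, against 2.97 ± 0.19 and 1.77 ± 0.32 FPKM in sham (SD, n = 5 each).

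**Figure D4:**
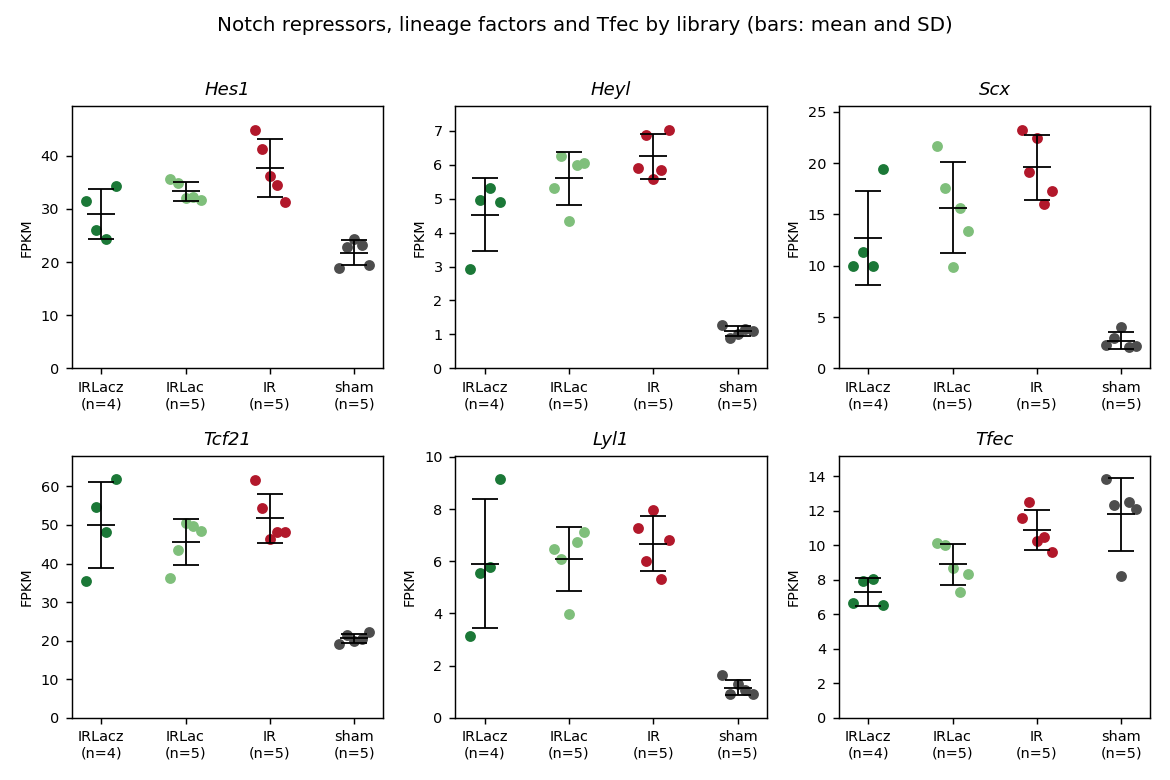
FPKM of Hes1, Heyl, Scx, Tcf21, Lyl1 and Tfec in each library, by group on the x axis (IRLacz n = 4, IRLac, IR and sham n = 5), with bars for the mean and SD. Heyl lies at 5.59 to 7.02 FPKM in IR, against 0.90 to 1.29 FPKM in sham, and Tfec at 6.55 to 8.05 FPKM in IRLacz, under all IR and all sham libraries.

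The comparison of IRLacz with IR asks how injured kidneys differed after gavage with L. casei Zhang. Myc, Bhlhe40, Hes1, Heyl, Srebf2 and Tfec were lower in IRLacz, and Mxi1, Mxd1 and Arnt2 higher. These 9 of 43 genes (20.9%) passed at an adjusted p of 0.05, against 13.3% of all entries. There were 3 higher and 6 lower among the bHLH genes, against 5.39% higher and 7.92% lower among all entries. These shares also apply to the counts of listed genes in this comparison. The median log2 difference was -0.13 over the 43 genes and -0.004 over all entries, and without IRLacz replicate 1 it was -0.008 and 0.027. Bhlhe40, Mxi1 and Tfec passed in all 30 other settings tried. Fits without 1 library passed between 3 and 11 genes, with 3 without IR replicate 2 or 3, 4 without IR replicate 1 or IRLacz replicate 2, and 5 without IRLacz replicate 3.

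Every IRLacz library lay above every IR library for 1 gene, Mxi1, and below for 8 (Bhlhe40, Bhlhe41, Heyl, Mycn, Ahr, Srebf2, Tfeb and Tfec), against 5.33% and 6.85% of all entries. The marker sums moved as well. Macrophage markers summed to 463.9 to 1053.8 FPKM in IRLacz and 1110.1 to 1581.5 in IR, fibroblast markers to 359.2 to 584.3 in IRLacz and 771.2 to 948.2 in IR, and cell cycle genes to 23.8 to 40.5 in IRLacz and 53.4 to 81.5 in IR. Of the 7 fibroblast markers 5 were lower in IRLacz by limma, while Dcn did not pass (log2 -0.42, adjusted p = 0.0749) and Pdgfra was at 12.2 to 17.56 FPKM in IRLacz and 10.13 to 13.44 FPKM in IR (log2 0.20, adjusted p = 0.269). Proximal tubule sums (1763.0 to 3917.2 in IRLacz and 2101.4 to 3018.0 in IR) and endothelial sums (99.1 to 114.3 in IRLacz and 103.8 to 117.8 in IR) overlapped. The part of these markers in the bHLH differences was not tested.

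**Figure D5:**
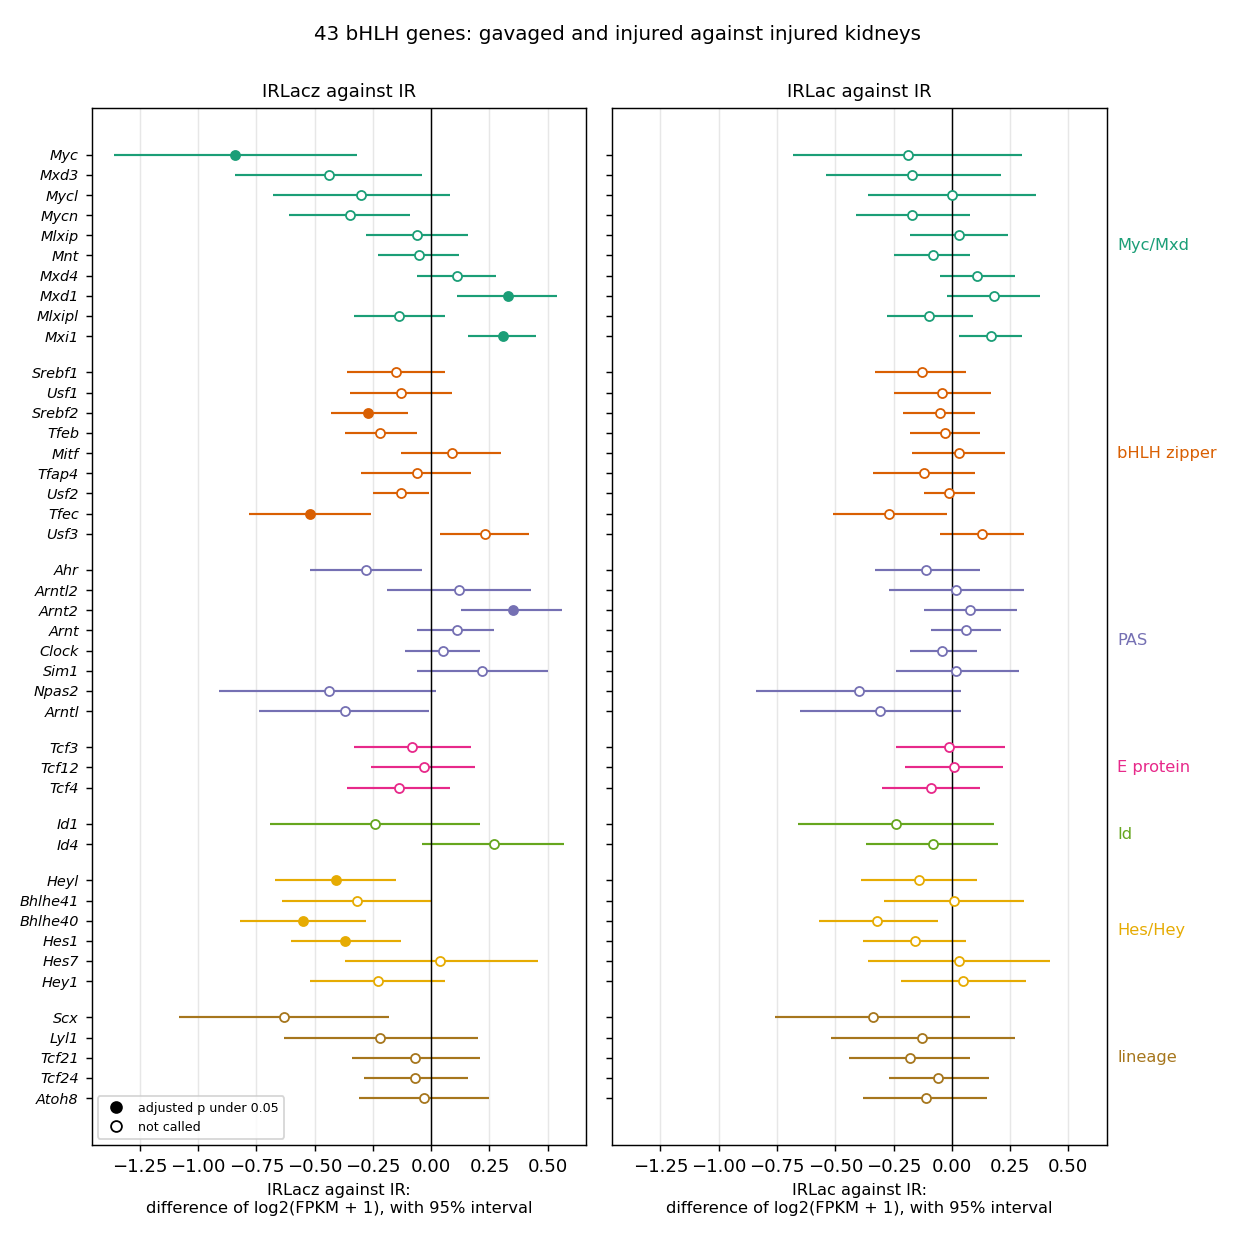
Differences of IRLacz from IR (left) and of IRLac from IR (right) on the log2(FPKM + 1) scale for the 43 bHLH genes by role, with 95% intervals from limma (n = 4 IRLacz, 5 IRLac and 5 IR libraries). Filled points passed an adjusted p of 0.05; 9 do so on the left, with Myc lowest at -0.84, and 0 on the right, and both panels share the IR libraries.

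Myc fell, and of its antagonists Mxi1 and Mxd1 rose. Myc was at 9.04, 14.55, 20.70 and 16.35 FPKM in IRLacz libraries, against 31.98, 31.56, 31.42, 23.39 and 18.66 FPKM in IR libraries. Only IRLacz replicate 3 reached the IR range, and Myc stayed above the highest sham library (6.65 FPKM) in all 4. The log2 difference was -0.84 (SE 0.25, adjusted p by limma = 0.0323). Myc missed the threshold in 8 of 30 other settings, with an adjusted p of 0.108 without IRLacz replicate 1, 0.0738 without IRLacz replicate 2, and 0.0725, 0.076 and 0.0834 without IR replicates 1, 2 and 3. Mxi1 was at 31.79, 33.17, 34.41 and 33.71 FPKM in IRLacz libraries, against 25.44, 26.58, 24.65, 28.54 and 28.32 FPKM in IR libraries, which put all IRLacz libraries above all IR libraries and within or just above the sham range (28.07 to 34.08 FPKM). Mxi1 rose by 0.31 (SE 0.07, adjusted p = 0.0104), with a highest adjusted p of 0.0351 in fits without 1 IRLacz or IR library.

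Mxd1 was at 3.97, 6.14, 5.28 and 5.41 FPKM in IRLacz libraries, against 4.10, 3.94, 3.80, 3.65 and 4.05 FPKM in IR libraries. IRLacz replicates 2, 3 and 4 were above the IR range, and replicate 1 was inside it. The log2 difference was 0.33 (SE 0.10, adjusted p = 0.0385), and the call held in 2 of 9 fits without 1 IRLacz or IR library, with an adjusted p of up to 0.137 (without IRLacz replicate 2). Mycn was at 1.95 to 2.38 FPKM in IRLacz and 2.67 to 3.64 FPKM in IR, without overlap, but did not pass (log2 -0.35, adjusted p = 0.0641). Mxd3 (log2 -0.44, adjusted p = 0.121), Mycl (-0.30, 0.261), Mxd4 (0.11, 0.36), Mnt (-0.05, 0.68), Mlxip (-0.06, 0.735) and Mlxipl (-0.14, 0.313) did not pass either.

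Of the 22 Myc target genes, 10 fell in IRLacz against IR and none rose, with a median log2 difference of -0.31. Over all entries 7.92% were lower and 5.39% higher, with a median of -0.004. How far the count of targets rests on single libraries was not tested. Nop56 was at 21.85 ± 2.75 FPKM in IRLacz (SD, n = 4) and 32.13 ± 5.31 FPKM in IR (n = 5), with an adjusted p of 0.0153. Nop58 was at 18.11 ± 3.11 FPKM in IRLacz and 27.64 ± 3.89 FPKM in IR (adjusted p = 0.0183), and Ccnd2 at 3.84 ± 0.62 FPKM in IRLacz and 5.88 ± 0.54 FPKM in IR (adjusted p = 0.00613). Cdk4 had a log2 difference of -0.13 (adjusted p = 0.479). All 7 cell cycle genes passed with lower values in IRLacz.

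Bhlhe40 was at 47.68, 39.19, 56.03 and 37.82 FPKM in IRLacz libraries, against 77.97, 62.11, 72.67, 60.17 and 57.84 FPKM in IR libraries. All IRLacz libraries lay between the sham range and the IR range. Bhlhe40 fell by 0.55 (SE 0.13, adjusted p by limma = 0.0125). Its paralog Bhlhe41, at 1.17, 1.34, 1.32 and 0.85 FPKM in IRLacz libraries and 1.48 to 2.14 FPKM in IR, was also without overlap but did not pass (log2 -0.32, adjusted p = 0.157). Arntl was at 2.45, 4.17, 2.91 and 5.63 FPKM in IRLacz libraries and 3.97 to 5.70 FPKM in IR, with a log2 difference of -0.37 (adjusted p = 0.149), and passed without IRLacz replicate 4 (adjusted p = 0.0313). Npas2 (log2 -0.44, adjusted p = 0.176), Arntl2 (0.12, 0.598) and Clock (0.05, 0.688) did not pass. Among the 11 listed clock targets only Cry2, a clock repressor named here after its values were seen, passed (log2 0.40, adjusted p = 0.0188).

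Tfec fell under the sham level. It was at 6.62, 7.91, 8.05 and 6.55 FPKM in IRLacz libraries, against 11.56, 12.50, 10.25, 10.46 and 9.61 FPKM in IR libraries, and 8.21 to 13.81 FPKM in sham. The log2 difference from IR was -0.52 (SE 0.12, adjusted p = 0.0131), with a highest adjusted p of 0.0385 in fits without 1 IRLacz or IR library. Every IRLacz library was below every IR and every sham library, while the macrophage sums of IRLacz lay above all sham sums. The source cells of Tfec were not tested here either. Tfeb, at 17.24 to 19.60 FPKM in IRLacz and 20.59 to 22.88 FPKM in IR, did not overlap and did not pass (log2 -0.22, adjusted p = 0.0559). Mitf had a log2 difference of 0.09 (adjusted p = 0.579). Of the 14 lysosomal targets, Ctsb, Hexa and Gpnmb were lower in IRLacz, the last named after its values were seen. Hexa was at 66.72 ± 13.20 FPKM in IRLacz (SD, n = 4) and 91.21 ± 9.0 FPKM in IR (n = 5).

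Srebf2 was at 28.27, 31.60, 26.68 and 28.06 FPKM in IRLacz libraries, against 31.73, 34.46, 35.70, 35.34 and 36.08 FPKM in IR libraries. The ranges lay next to each other without overlap, and Srebf2 fell by 0.27 (SE 0.08, adjusted p = 0.0305). It missed the threshold without IRLacz replicate 1 (adjusted p = 0.0625) or 3 (0.074) and without IR replicate 2 (0.0603) or 3 (0.0757). Srebf1 did not pass (log2 -0.15, adjusted p = 0.3). Of 16 SREBP targets 5 were lower in IRLacz, among them Fdps, Sqle and Fasn. Fdps was at 29.57 ± 1.64 FPKM in IRLacz (SD, n = 4) and 40.64 ± 2.68 FPKM in IR (n = 5).

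Hes1 was at 31.46, 26.02, 24.30 and 34.28 FPKM in IRLacz libraries, against 44.84, 41.37, 36.28, 34.46 and 31.23 FPKM in IR libraries, with overlap. Hes1 fell by 0.37 (SE 0.11, adjusted p = 0.0344), and its adjusted p reached 0.108 without IRLacz replicate 2, 0.0961 without IRLacz replicate 3, and 0.0862, 0.0853 and 0.0692 without IR replicates 1, 2 and 3. Heyl was at 2.94, 4.96, 5.32 and 4.89 FPKM in IRLacz libraries, against 5.90, 6.87, 5.59, 5.84 and 7.02 FPKM in IR libraries, all below. Heyl fell by 0.41 (SE 0.12, adjusted p = 0.0367), and the call held in 3 of 9 fits without 1 IRLacz or IR library, with a log2 difference of -0.254 and an adjusted p of 0.116 without IRLacz replicate 1. All 4 IRLacz libraries of Heyl were above its sham range, while Hes1 in IRLacz replicate 3 fell within its own (18.97 to 24.36 FPKM in sham). Jag1 was the Notch pathway gene that passed, at 9.79 ± 1.83 FPKM in IRLacz (SD, n = 4) and 14.15 ± 1.98 FPKM in IR (n = 5, adjusted p = 0.0151).

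Arnt2 was at 13.79, 16.43, 18.25 and 19.09 FPKM in IRLacz libraries, against 13.14, 13.01, 11.05, 14.01 and 13.93 FPKM in IR libraries. IRLacz replicate 1 was within the IR range and the others above it. Of the 3 genes higher in IRLacz, Arnt2 was the only gene that was also higher in IR than in sham, and it rose by 0.35 (SE 0.10, adjusted p = 0.0317). The call held in 3 of 9 fits without 1 IRLacz or IR library, with a highest adjusted p of 0.0914 without IR replicate 3. Arnt (log2 0.11, adjusted p = 0.352), Sim1 (0.22, 0.268) and Ahr (-0.28, 0.0973) did not pass, although all IRLacz libraries of Ahr (2.72 to 3.39 FPKM) were below those of IR (3.40 to 4.68 FPKM). Of the 17 hypoxia targets, Bnip3, Egln3 and Pdk1 were higher in IRLacz and Hk2, Slc2a1 and P4ha1 lower. Hk2 was at 2.29 ± 0.85 FPKM in IRLacz (SD, n = 4) and 5.61 ± 0.96 FPKM in IR (n = 5), and Bnip3 at 62.35 ± 6.54 FPKM in IRLacz and 45.02 ± 2.78 FPKM in IR.

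Lineage factors, E proteins and Id proteins had no gene past the threshold in IRLacz against IR. Scx came nearest, at 10.01, 11.30, 9.93 and 19.45 FPKM in IRLacz libraries, against 23.21, 19.09, 22.46, 16.01 and 17.24 FPKM in IR libraries. IRLacz replicate 4 stood within the IR range and the others below it, and the log2 difference was -0.63 (SE 0.21, adjusted p = 0.0527). Scx passed in 8 other settings, with an adjusted p of 0.0134 without IRLacz replicate 4. Tcf21 was at 35.52 to 61.84 FPKM in IRLacz and 46.29 to 61.58 FPKM in IR (log2 -0.07, adjusted p = 0.755), and Lyl1 at 3.12 to 9.14 FPKM in IRLacz and 5.33 to 7.97 FPKM in IR (log2 -0.22, adjusted p = 0.47). The intervals of the log2 differences ran from -0.34 to 0.21 for Tcf21 and from -0.63 to 0.20 for Lyl1. The fibroblast and macrophage sums did not overlap, although only 5 of 7 fibroblast and 5 of 8 macrophage markers passed as lower. The source cells of Tcf21 and Lyl1 were not tested. The 3 E proteins lay between -0.14 and -0.03, Id1 at -0.24 (adjusted p = 0.455) and Id4 at 0.27 (0.213). Bmp7 was higher in IRLacz, at 13.75 ± 2.05 FPKM (SD, n = 4) and 9.99 ± 1.52 FPKM in IR (n = 5, adjusted p = 0.0225), and Smad7, an inhibitor of the pathway named after its values were seen, was lower (log2 -0.46, adjusted p = 0.00643).

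The comparison of IRLac with IR asks the same of the other strain, with the same IR libraries as reference. By limma none of the 43 genes passed, where 0.00736% of all entries did, and 3 had an unadjusted p under 0.05, near the 5.78% of all entries. These were Bhlhe40, Mxi1 and Tfec. Bhlhe40 was at 62.61, 46.19, 43.94, 55.52 and 56.98 FPKM in IRLac libraries and 57.84 to 77.97 FPKM in IR (log2 -0.32, adjusted p = 0.673). Mxi1 was at 30.86, 31.71, 30.66, 27.29 and 29.78 FPKM in IRLac libraries and 24.65 to 28.54 FPKM in IR (log2 0.17, adjusted p = 0.676), and Tfec at 10.13, 9.99, 8.65, 7.31 and 8.32 FPKM in IRLac libraries and 9.61 to 12.50 FPKM in IR (log2 -0.27, adjusted p = 0.812). Each overlapped the IR range, as did all 43 genes, where 0.559% of all entries were apart. Myc was at 34.46, 24.04, 14.85, 27.59 and 20.30 FPKM in IRLac libraries, with a log2 difference of -0.19 and a 95% interval from -0.68 to 0.30. None of the 15 companion lists had a gene past the threshold.

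IRLacz and IRLac were also compared directly, which does not use the IR libraries. By limma none of the 43 genes passed, where 0.0221% of all entries did, and 10 had an unadjusted p under 0.05, as did 16% of all entries. Mxi1 was the only gene of the 43 without overlap, at 31.79 to 34.41 FPKM in IRLacz and 27.29 to 31.71 FPKM in IRLac (log2 0.14, adjusted p = 0.31), where 2.94% of all entries did not overlap. Myc was at 9.04 to 20.70 FPKM in IRLacz and 14.85 to 34.46 FPKM in IRLac (log2 -0.65, SE 0.25, adjusted p = 0.221). Srebf2 had the smallest p of the 10, with a log2 difference of -0.21 (adjusted p = 0.195). A call in IRLacz against IR beside no call in IRLac against IR is thus not a shown difference between the strains.

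The gavaged groups were also set beside sham. All IRLacz libraries lay above all sham libraries for 18 genes and below for 4, against 45.1% and 10% of all entries, and all IRLac libraries above for 25 and below for 3, against 46.6% and 11.8%. Both the 18 and the 25 include Arntl2, Bhlhe41 and Mxd3, which passed the filter through the injured groups alone. The ranges of the other 21 genes in IRLacz and 15 in IRLac overlapped those of sham, and for IRLacz the counts were near the shares of all entries. Arntl and Npas2 were below the sham range in both gavaged groups. Arntl was at 2.45 to 5.63 FPKM in IRLacz and 2.85 to 4.80 FPKM in IRLac, against 7.67 to 11.83 FPKM in sham, and Npas2 at 1.33 to 3.45 FPKM in IRLacz and 1.54 to 4.39 FPKM in IRLac, against 4.62 to 8.37 FPKM in sham.

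Of the 84 genes that met the identity rule, 25 were in the expression table but stayed under the filter, and 16 were not in it. Lineage factors made up most of them, since 5 of 39 passed, while the Hes, Hey and Bhlhe40/41 group kept 6 of 10. Neurog2, a neuronal lineage factor, was at 0.79, 0.06, 0.03 and 0.03 FPKM in IRLacz libraries, 0.06, 0.06, 0.21, 0.00 and 0.00 FPKM in IRLac libraries, 0.06, 0.00, 0.00, 0.03 and 0.06 FPKM in IR libraries, and 0.91, 0.67, 1.19, 1.91 and 0.88 FPKM in sham libraries. IRLacz replicate 1 was thus the injured library closest to sham for this untested gene, which is named after its values were seen. Among the other 24, Bhlhe22 reached 1.24 FPKM and Tal1 1.00 FPKM in IRLac replicate 4, and the rest stayed under 1 FPKM in every library.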

How the data were processed

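Kidney RNA was sequenced in 19 libraries of 4 groups, named by the sample titles. The authors deposited 1 table of FPKM values and a transcription factor table, which gives identity to the best match in percent. HISAT, StringTie 1.0.4 and mm9 are named in the submitters' processing notes without their roles, and neither strand nor the handling of shared reads is stated. Gene names and promoter windows came from RefSeq (GRCm38.p6), and no coordinates of the deposited table were used.

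Values were tested as log2(FPKM + 1), a scale that understates the change of low genes, with limma 3.58.1 (R 4.3.3), its trend option and 1 model over all 19 libraries (15 residual degrees of freedom). The Benjamini-Hochberg adjustment ran over 13594 entries, those that reached 1 FPKM in 4 or more libraries, and the threshold was 0.05. FPKM are not counts, so no count model was used. The fit was tested on simulated data.

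The bHLH genes and the companion lists were chosen with earlier results of these data known. All bHLH genes that passed the filter are accounted for, and up to 4 genes of each companion list are named, in the order of adjusted p in IR against sham. Further companion genes (Odc1, Per2, Per3, Dbp, Cry2, Notch4, Rfng, Cdh1, Sqle, Fasn, Gpnmb, Egln3, Pdk1, P4ha1 and Smad7) were named after their values were seen. Some companion genes are counted but not reported by name here. Hif1a, Epas1, Max and Tfe3 miss the identity rule, and Id2, Id3 and Twist1 are not in the transcription factor table. Alternatives covered pseudocounts of 0.1 and 0.5, no filter, a mean of at least 5 FPKM, median-ratio, quantile and TPM scaling, only the compared groups, library weights, a replicate block and leaving out each library. Leaving out both IRLacz replicate 1 and IRLac replicate 3 was added after the data were seen.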

Additional observations from a re-analysis of the deposited data

Results flagged for a closer look

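In groups of 4 or 5 libraries, a library was singled out where its gap to the nearest other library, divided by the range of its group, was above Dixon's 95% critical value. Of 172 combinations of a gene and a group, 10 were, and chance alone singles out about 1 in 20.

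In injured kidneys with gavage, Mxd3 in IRLacz replicate 1 was at 1.27 FPKM, with the other IRLacz libraries at 3.29 to 3.60 FPKM, and this library was also the lowest of its group for 22 of the 31 genes that were higher in IR than in sham. Scx in IRLacz replicate 4 was at 19.45 FPKM, with the others at 9.93 to 11.30 FPKM. Mlxipl in the same library was at 38.15 FPKM, with the others at 50.57 to 52.32 FPKM. Tfap4 in IRLac replicate 2 was at 4.32 FPKM, with the others at 3.14 to 3.39 FPKM. Usf1 in IRLac replicate 4 was at 36.55 FPKM, with the others at 30.59 to 32.28 FPKM.

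In IR kidneys, Hey1 in replicate 3 was at 1.69 FPKM, with the others at 0.84 to 1.05 FPKM, and Sim1 in replicate 4 at 3.06 FPKM, with the others at 2.02 to 2.29 FPKM. In sham kidneys, Mxd4 in replicate 3 was at 50.46 FPKM, with the others at 45.19 to 46.71 FPKM, Atoh8 in the same library at 3.59 FPKM, with the others at 2.40 to 2.7 FPKM, and Arnt2 in replicate 4 at 8.17 FPKM, with the others at 8.99 to 9.29 FPKM.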

How the results depend on the processing

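Relative to all entries, whose median log2 difference of IR from sham was 0.29, 0.004 under median-ratio scaling and -0.061 under quantile scaling, small differences of single genes changed sign. Under median-ratio scaling these were Mnt (-0.014), Mxd1 (-0.264), Mxd4 (-0.117), Mitf (-0.037) and Usf2 (-0.13). Under quantile scaling they were Hes7 (-0.094), Mnt (-0.05), Mxd1 (-0.476), Arnt (-0.033), Mitf (-0.261), Tfap4 (-0.272) and Atoh8 (-0.049). Over all settings and the 43 genes, 1197 values of IR against sham kept their call, 41 lost it and 22 gained it, and 1207, 47 and 18 did so for IRLacz against IR. Causes were not tested.

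The count of bHLH genes called in IR against sham was 36, 22 of 25 tested at a mean of at least 5 FPKM, and 33 to 37 without 1 library. In IRLacz against IR it was 9, 4 with only these groups in the model, 7 without IRLacz replicate 1 and IRLac replicate 3 (Myc, Heyl and Srebf2 lost, Arntl2 gained), and 3 to 11 without 1 library. It was 0 in all settings for IRLac against IR and for IRLacz against IRLac.

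Over all entries, IR against sham had 9920 to 10367 calls without 1 library. IRLacz against IR had 1809, 885 with only these groups in the model, 2978 with library weights, and 606 to 2197 without 1 library. IRLac against IR had 1, with 0 at a mean of at least 5 FPKM, with library weights, with the replicate block and without the 2 libraries named above, and 0 to 116 without 1 library (116 without IR replicate 5). IRLacz against IRLac had 3, with 1 at a pseudocount of 0.1, 5 with no filter, 0 at a mean of at least 5 FPKM, 10 with median-ratio scaling, 1 with only these groups, 167 with library weights, 1 with the replicate block, 86 without both libraries, and 1 to 490 without 1 library (490 without IRLac replicate 3).

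The groups share replicate numbers in the labels, but deviations of same-numbered libraries correlated between -0.394 and 0.23, so the numbers were not taken as pairs. With the replicate block, 35 genes passed in IR against sham and 7 in IRLacz against IR.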

Other observations

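Several bHLH genes that missed the family rule stood beside its members. Id3, an Id protein, was at 156.6 ± 47.3 FPKM in IRLacz (SD, n = 4), 147.8 ± 7.7 FPKM in IRLac, 170.0 ± 27.2 FPKM in IR and 77.33 ± 10.77 FPKM in sham (n = 5 each), with a log2 difference of IR from sham of 1.12 (limma adjusted p = 3.92e-06), where its relative Id4 did not pass. Hif1a, a hypoxia-inducible factor, was at 26.44 ± 0.36 FPKM in IRLacz, 23.08 ± 2.72 FPKM in IRLac, 23.55 ± 1.39 FPKM in IR and 15.80 ± 0.99 FPKM in sham, higher in IR than in sham by 0.55 (adjusted p = 9.67e-07). The hypoxia-inducible factor gene Epas1 fell instead (log2 -0.36, adjusted p = 0.000295). Twist1, a mesenchymal factor, was at 1.37 ± 0.59 FPKM in IRLacz, 1.83 ± 0.23 FPKM in IRLac, 2.27 ± 0.85 FPKM in IR and 0.854 ± 0.207 FPKM in sham, higher in IR than in sham by 0.79 (adjusted p = 0.000448). None of these passed in IRLacz against IR, where the adjusted p was 0.528 for Id3, 0.133 for Hif1a, 0.389 for Epas1 and 0.0923 for Twist1.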
